A study of Caenorhabditis elegans with 2 samples.

Results

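The genes described here are the 6 listed Caenorhabditis elegans genes for the RNA parts of RNase P (rpr-1), RNase MRP (mrpr-1) and the signal recognition particle, SRP (the pair srpr-1.1 and srpr-1.2, and the pair srpr-2.1 with srpr-2.2). They were taken by name from the Ensembl release 115 annotation of WBcel235, the assembly also called ce11, and are 6 of its 46890 nuclear genes. Binding of GMEB-2, whose vertebrate relatives are named for binding the glucocorticoid modulatory element, was measured by chromatin immunoprecipitation and sequencing (ChIP-seq) in 2 biological replicates of 1 group. Both replicates were whole late embryos of pooled sexes from strain OP622 (unc-119(tm4063) III; wgIs622), taken 5 h after synchronization by bleaching of eggs. The transgene makes GMEB-2 with a GFP-FLAG tag at its C terminus, and the precipitation used an antibody to GFP. With 1 strain, 1 stage and whole animals, no conditions could be compared and the signal cannot be assigned to a cell type. The labels name a control experiment, which was not analysed here. They list 2 sequencer models for replicate 2 and none for replicate 1.

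RNase P is the ribonucleoprotein enzyme that removes the 5′ leader of tRNA precursors. RNase MRP shares most of its protein subunits with RNase P and takes part in the processing of ribosomal RNA precursors. The SRP RNA is the scaffold of the particle that brings ribosomes making secreted and membrane proteins to the endoplasmic reticulum. In vertebrates all 3 kinds of RNA are made by RNA polymerase III: the RNase P and RNase MRP RNA genes have promoters upstream of the gene, with a proximal sequence element and a TATA box, whereas the SRP RNA gene also uses elements inside the transcribed region. Genes for tRNAs, another class made by RNA polymerase III, carry internal promoter elements, the B box among them.

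The sequences are shown first, because the RNase P and RNase MRP RNA genes share words upstream of their 5′ ends and the SRP RNA genes share nearly their whole length, which bears on how far a peak can be assigned to a single copy. All were read from the RefSeq WBcel235 genome and are written 5′ to 3′ on the strand of the gene. The region around the start of mrpr-1 (chrII:7200133-7200282, plus strand), from 100 bases before the gene to its base 50, is given with 2 stretches in capitals: a word that it shares with rpr-1, spelled GTGTCNGCCGC, and a TATA stretch.
mrpr-1: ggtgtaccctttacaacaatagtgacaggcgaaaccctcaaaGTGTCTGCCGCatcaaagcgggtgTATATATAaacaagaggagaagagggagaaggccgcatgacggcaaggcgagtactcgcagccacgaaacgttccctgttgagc

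In mrpr-1 the shared word lay from position -58 to -48 and the TATA stretch from -34 to -27, where -1 is the last base before the gene. In rpr-1 the shared word lay from -56 to -46 and the word TATATA from -30 to -25, all on the strand of the gene. When the 40 bases from -80 to -41 of mrpr-1 were set against rpr-1 with a shift of 2 bases, 25 were identical, against a median of 10 and at most 12 over the other shifts tried. The shared word was found by comparing these 2 genes. Searched on both strands from 250 bases before to 50 bases after the 5′ end, it occurred in 40 of 46884 promoters (0.0853%), among them 0 of 612 at tRNA genes, 0 of 129 at snRNA genes and 6 of 346 at snoRNA genes. TATATA is common by comparison: 12.3% of all promoters held it, as did 4 of the 6 genes described here, in srpr-1.1 and srpr-1.2 at -189 to -158 and at -216 to -211.

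The 60 bases before each SRP RNA gene are given next, with capitals where all 4 genes have the same base at the same distance from the gene. They come from chrIII:4379207-4379266 (minus strand) for srpr-1.1, chrIII:4369408-4369467 (plus strand) for srpr-1.2, chrIII:5211160-5211219 (plus strand) for srpr-2.1 and chrIII:5031709-5031768 (minus strand) for srpr-2.2.
srpr-1.1: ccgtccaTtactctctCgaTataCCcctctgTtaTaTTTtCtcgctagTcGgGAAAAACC
srpr-1.2: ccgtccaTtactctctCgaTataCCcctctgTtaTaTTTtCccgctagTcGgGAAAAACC
srpr-2.1: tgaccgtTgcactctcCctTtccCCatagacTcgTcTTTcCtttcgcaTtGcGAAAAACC
srpr-2.2: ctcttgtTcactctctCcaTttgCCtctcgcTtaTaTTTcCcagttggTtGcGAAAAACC

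All 4 genes had the same base at 21 of these 60 positions, 11 of which were among the 20 nearest to the gene. Over the next 40 bases outward, from -100 to -61 and not shown, they had the same base at 2. The word GAAAAACC directly before the gene, from -8 to -1, was common to all 4, while 2.93% of all promoters held it on either strand anywhere from -250 to the 50th base of the gene. The likeness of the upstream region differed between the pairs: 95 of 100 upstream bases were identical between srpr-1.1 and srpr-1.2, against 34 of 100 between srpr-2.1 and srpr-2.2. It did not follow the pairs throughout. The srpr-2.2 gene shared 59 bases with srpr-1.1 and 59 with srpr-1.2, and srpr-2.1 shared 32 and 31 with them. These counts compare bases at the same distance from the gene without gaps, so an inserted or lost base would lower them.

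The transcribed parts are far more alike. The gene srpr-1.1 (chrIII:4378909-4379206, minus strand, 298 bp) and the gene srpr-2.1 (chrIII:5211220-5211518, plus strand, 299 bp) are shown with their differing bases in capitals, since the same letters are where a sequenced fragment could be told apart.
srpr-1.1: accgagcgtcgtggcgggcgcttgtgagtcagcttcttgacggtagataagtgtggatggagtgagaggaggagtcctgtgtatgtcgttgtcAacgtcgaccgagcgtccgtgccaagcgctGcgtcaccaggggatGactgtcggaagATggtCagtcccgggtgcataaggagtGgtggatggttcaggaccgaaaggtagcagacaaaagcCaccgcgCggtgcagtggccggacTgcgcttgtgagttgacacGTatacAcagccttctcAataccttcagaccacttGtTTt
srpr-2.1: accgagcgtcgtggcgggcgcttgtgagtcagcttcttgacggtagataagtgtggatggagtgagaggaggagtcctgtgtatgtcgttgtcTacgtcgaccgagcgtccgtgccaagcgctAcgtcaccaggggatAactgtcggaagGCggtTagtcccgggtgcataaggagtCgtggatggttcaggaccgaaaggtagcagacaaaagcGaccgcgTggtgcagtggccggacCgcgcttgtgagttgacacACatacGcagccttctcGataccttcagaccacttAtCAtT

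These genes differed at 17 of 298 positions. Within a pair the differences were fewer. With positions counted from 1 at the 5′ end of the gene, srpr-1.1 and srpr-1.2 differed by A49G, T240A, T296C, T297A and T298C, and srpr-2.1 and srpr-2.2 by T90C, G249A and G265A, the base of the gene named first standing first. Of 298 positions, 21 varied among the 4 genes, and 13 of these separated both srpr-1 genes from both srpr-2 genes. The longest stretch without a difference was 190 bp within the srpr-1 pair and 158 bp within the srpr-2 pair.

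The 6 genes lie in different settings. The RNase P RNA gene rpr-1 (WBGene00045238) occupies I:13463955-13464207 on the plus strand, inside an intron of ints-8, which runs on the opposite strand. The RNase MRP RNA gene mrpr-1 (WBGene00045095) occupies II:7200233-7200418 on the plus strand, between genes, with the coding gene pcrg-1 beginning after a gap of 130 bp. All 4 SRP RNA genes are on chromosome III. Of these, srpr-1.1 (WBGene00045189) is intergenic, with 1 bp between its 3′ end and the oppositely oriented gene pals-26. Its near copy srpr-1.2 (WBGene00045168) at III:4369468-4369766 lies on the plus strand in an intron of ckb-2, a gene on the same strand. The gene srpr-2.1 (WBGene00195016) is intergenic, 262 bp from the nearest gene. The gene srpr-2.2 (WBGene00195017) at III:5031410-5031708 lies on the minus strand in an intron of klp-6, which is on the other strand, and its 5′ end overlaps the ncRNA gene R144.16. The annotation gives ncRNA as the biotype of all 6, with no coding exon or UTR of their own, and RefSeq places 6 of 6 at the same positions.

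Neither tRNA nor snoRNA genes, the classes that hold many peaks in these embryos, were close to them. The nearest tRNA gene was between 6825 bp (srpr-1.2) and 263271 bp (srpr-2.2) away, and the nearest snoRNA gene between 15741 bp (mrpr-1) and 319868 bp (srpr-1.2).

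All 6 genes carried a peak that passed the authors' threshold on reproducibility. In the list cut by irreproducible discovery rate (IDR), a measure of how alike replicates rank a peak, there were 634 peaks and 6 of 6 genes had a summit within 500 bp of the gene body. Of all nuclear genes, 2.69% had one, and of tRNA genes 35.3%, of snoRNA genes 15.9%, of snRNA genes 6.20%, of genes annotated as ncRNA 3.81% and of protein-coding genes 3.21%. All 6 also had one within 200 bp (2.03% of nuclear genes) and within 1000 bp (3.30%), or a peak interval within 500 bp (2.90%). Among the 317 strongest IDR peaks 5 of 6 did (1.54%). The genes were listed with earlier results of these data known, so the 6 of 6 is a description and was not tested. The IDR list equals the 634 strongest peaks of the relaxed list made from both replicates together. A summit in one of the 3 relaxed lists, each of 30000 peaks, marks far less: 6 of 6 genes had one in each, as did 38.2% of all nuclear genes in the joint list, 40.0% in replicate 1 and 39.6% in replicate 2.

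The order of the peaks put rpr-1 first, mrpr-1 next and the SRP RNA genes after them. Signal is the authors' value for each peak, on a scale of its own in each list. In the IDR list it had a median of 135 and ran from 91.8 to 1083. The rpr-1 peak (I:13463817-13464083) had signal 365 and rank 49 of 634. The mrpr-1 peak (II:7200051-7200426) had signal 217 and rank 136. These were 3.97 and 2.36 times the weakest peak of the list.

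The SRP RNA genes lay nearer to the middle of the list. At srpr-2.2 there were 2 peaks, of signal 175 and rank 200 (III:5031278-5031653) and of signal 164 and rank 223 (III:5031515-5031890). The peak at srpr-1.1 (III:4378582-4378957) had signal 154 and rank 251, and that at srpr-1.2 (III:4369440-4369815) signal 138 and rank 298. The peak at srpr-2.1 (III:5211286-5211661), of signal 126 and rank 357, was the weakest of the 7 and the only one below the median of the list. Among the 123 IDR peaks on chromosome III, these 5 stood at ranks 36, 40, 46, 57 and 68. The next IDR summit beyond the window of each gene was between 6246 bp (rpr-1) and 38525 bp (srpr-2.1) away.

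**Figure D1:**
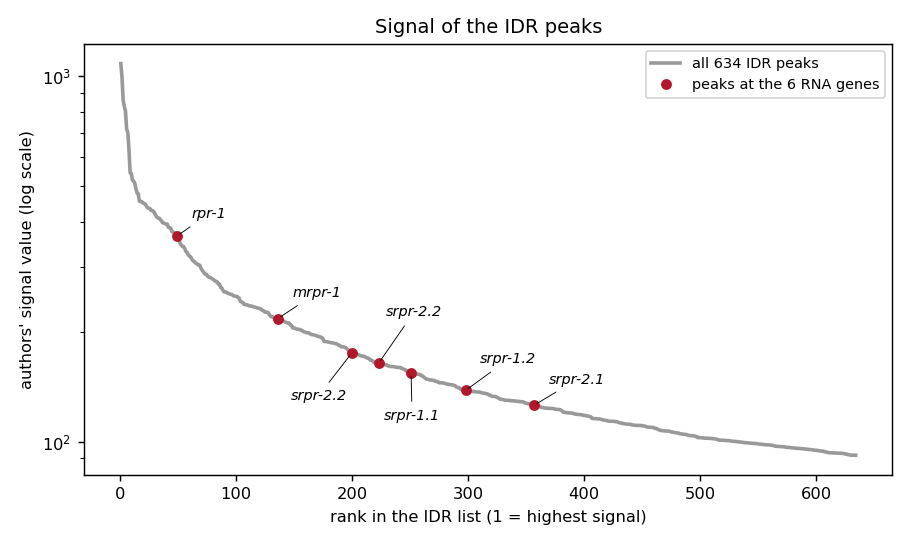
Signal of every peak of the IDR list against its rank, with the 7 peaks at the 6 RNA genes marked. The rpr-1 peak stands at signal 365 (rank 49), mrpr-1 at 217 (rank 136), and the 5 SRP RNA gene peaks between 126 and 175.

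Most peaks stronger than that of rpr-1 were at tRNA or snoRNA genes. Of the 48 stronger IDR peaks, 18 had a summit within 200 bp of a tRNA gene, 21 of a snoRNA gene and 9 of neither. Among the 396 IDR peaks away from both classes, rpr-1 thus ranked 10th and mrpr-1 46th. The SRP RNA gene peaks ranked 80th and 93rd (srpr-2.2), 109th (srpr-1.1), 134th (srpr-1.2) and 172nd (srpr-2.1).

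The replicates gave the same order at the top. For rpr-1, signal was 147 (rank 42) in replicate 1 and 220 (rank 49) in replicate 2. For mrpr-1 it was 91.7 (rank 118) in replicate 1 and 132 (rank 138) in replicate 2. Both genes ranked above every SRP RNA gene in each replicate, and their ranks did not overlap with those of the SRP RNA genes or with each other's.

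The strongest summit at srpr-2.2 had signal 63.9 (rank 245) in replicate 1 and 114 (rank 185) in replicate 2. At srpr-1.1 the values were 74.3 (rank 185) and 86.4 (rank 293) in replicates 1 and 2. For these genes the replicates therefore disagreed on which was stronger.

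At srpr-1.2 the signal was 46.3 (rank 484) in replicate 1 and 88.0 (rank 281) in replicate 2, the widest gap in rank among the 6 genes. At srpr-2.1 it was 50.6 (rank 380) in replicate 1 and 80.7 (rank 330) in replicate 2. Among the SRP RNA genes the ranks of srpr-2.2 (185 and 245) did not overlap with those of srpr-1.2 or srpr-2.1, nor did the ranks of srpr-1.1 (185 and 293) overlap with those of srpr-2.1. The other pairs, srpr-2.2 with srpr-1.1, srpr-1.1 with srpr-1.2, and srpr-1.2 with srpr-2.1, changed order between the replicates. The weakest of these values still exceeded the signal of the 634th peak, which was 41.9 in replicate 1 and 58.8 in replicate 2. All 7 IDR peaks at the 6 genes matched a peak among the 634 strongest of each replicate, counting summits within 200 bp. Of all 634 IDR peaks 423 (66.7%) did. That share includes the weaker peaks of the list, while the 7 had IDR ranks of 357 or better. It is therefore not the share for peaks of like strength. Both srpr-2.2 peaks matched the same replicate 1 summit, which lay between them at 137 bp. Among the 634 strongest peaks of replicate 1 alone 6 of 6 genes had a summit within 500 bp (2.56% of nuclear genes), as they did in replicate 2 alone (2.74%).

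**Figure D2:**
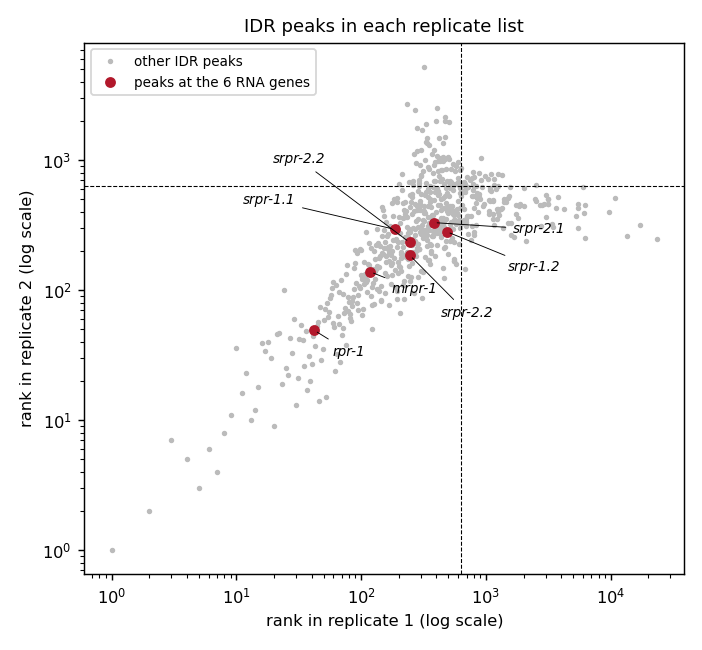
Rank of the matching peak in each replicate for the IDR peaks, with the peaks at the 6 RNA genes marked and rank 634 drawn as dashed lines. Both axes are logarithmic. All 7 marked peaks lie within rank 634 in both replicates. The rpr-1 peak (ranks 42 and 49) and the mrpr-1 peak (118 and 138) stand ahead of the SRP RNA genes.

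The place of the strongest summit differed between the RNase P and RNase MRP RNA genes and the SRP RNA genes. The IDR summit was at I:13463944 for rpr-1, 11 bp before the 5′ end, and at II:7200239 for mrpr-1, 6 bp after it. The mrpr-1 summit also lay less than 1000 bp before the 5′ ends of the coding genes on either side, pcrg-1 and E04F6.6. Which of these genes the peak belongs to was not tested. At srpr-1.2 the summit was 160 bp downstream of the 5′ end and at srpr-2.1 254 bp, both inside the gene. The srpr-2.2 peaks had summits 242 bp and 5 bp downstream. At srpr-1.1 the summit lay 436 bp downstream, which is 139 bp past the 3′ end and in coding sequence of pals-26. No SRP RNA gene had its strongest summit within 100 bp of the 5′ end.

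In the replicates alone the offset of the strongest summit, positive when downstream of the 5′ end, was 5 bp (replicate 1) and -12 bp (replicate 2) at rpr-1. At mrpr-1 it was 83 bp in replicate 1 and -1 bp in replicate 2. At srpr-1.1 it was 406 bp in replicate 1 and 443 bp in replicate 2, past the 3′ end in both.

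At srpr-1.2 the offset was 110 bp in replicate 1 and 157 bp in replicate 2. It was 123 bp in replicate 1 and 254 bp in replicate 2 at srpr-2.1, and 137 bp in replicate 1 and 255 bp in replicate 2 at srpr-2.2. The strongest summits of the 4 SRP RNA genes were thus at 110 bp or more in both replicates, and those of rpr-1 and mrpr-1 at 83 bp or less. The mrpr-1 summits of the replicates were 84 bp apart, more than the distance from 83 to 110 bp. At srpr-2.2 a summit of nearly the same signal lay by the 5′ end. It was at 5 bp in the IDR list (signal 164 against 175) and at -3 bp in replicate 2 (99.7 against 114).

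**Figure D3:**
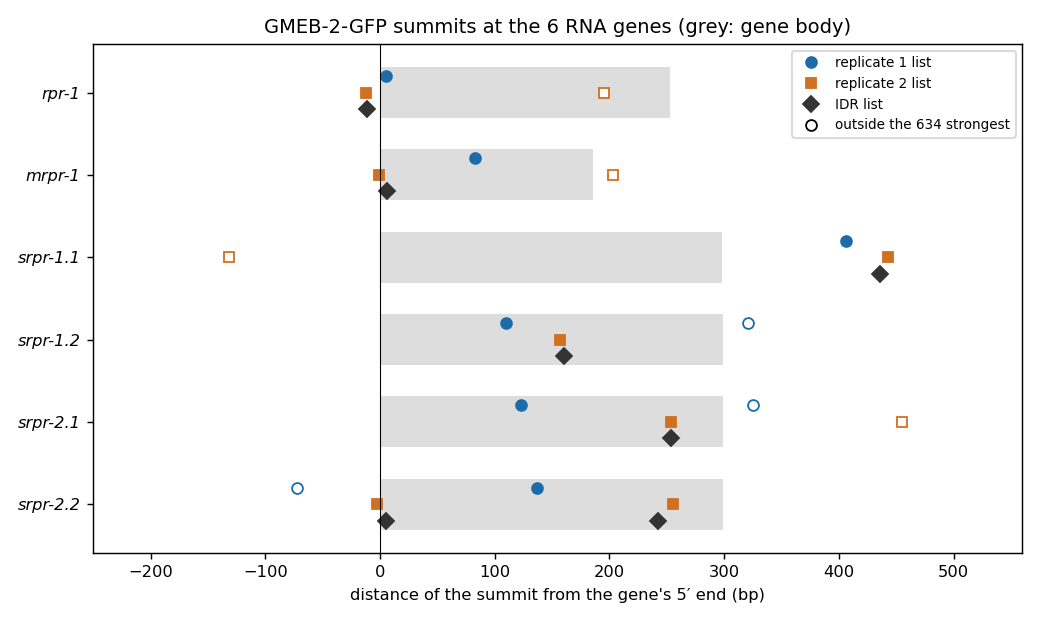
Distance of summits from the 5′ end of each gene, in bp, with the gene body in grey, for the IDR list and for each replicate, with open symbols for summits outside the 634 strongest peaks. The strongest rpr-1 summits sit at the 5′ end (-12 to 5 bp), those of srpr-1.1 lie past the 3′ end (406 to 443 bp), and the srpr-2.2 gene has summits at both ends.

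The matched summits of the replicates lay farther apart at mrpr-1 and the srpr-2 genes than at most peaks. The distance between the replicates' summits was 17 bp at rpr-1, 37 bp at srpr-1.1 and 47 bp at srpr-1.2. It was 84 bp at mrpr-1, 131 bp at srpr-2.1, and 118 bp and 140 bp at the peaks of srpr-2.2. Over the 631 IDR peaks seen in both replicates the median was 24 bp and the 90th percentile 88 bp, so all 3 peaks at the srpr-2 genes exceeded the 90th percentile. Both distances at srpr-2.2 were taken to the same replicate 1 summit, the strongest within 200 bp. Replicate 1 also listed a weak summit at -72 bp, nearer to the IDR summit at 5 bp. The median over the 7 peaks was 84 bp. Summits of a given list were always at least 200 bp apart in the IDR list, and the deposited intervals mostly had a fixed width, 376 bp in the IDR list.

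A further summit was listed at several of the genes. The srpr-2.2 gene was the only one with 2 IDR peaks, whose signals differed by 1.07 times. In replicate 2 its summits had signal 114 at 255 bp and 99.7 at -3 bp (rank 232). In replicate 1 the summit near the 5′ end was weak, with signal 16.0 and rank 19532 at -72 bp, so the separate peak near the 5′ end was strong in replicate 2 alone.

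At mrpr-1 a weaker summit 206 bp downstream, 21 bp past the 3′ end, had signal 78.8 (rank 919) in the joint list, and one at 203 bp had signal 38.3 (rank 2941) in replicate 2. At rpr-1 a summit 191 bp downstream had signal 53.8 (rank 3759) in the joint list. Its counterpart in replicate 2, at 195 bp, had signal 21.1 and rank 21441.

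The remaining further summits were weak. In replicate 1 they were at 321 bp of srpr-1.2 (signal 17.2, rank 16275) and at 325 bp of srpr-2.1 (signal 14.1, rank 25663). In replicate 2 they were at -132 bp of srpr-1.1 (signal 22.5, rank 18413) and at 455 bp of srpr-2.1 (signal 21.1, rank 21384). In all, the IDR list held 7 summits within 500 bp of the 6 genes, the joint list 9, replicate 1 held 9 and replicate 2 held 11. Over the 4 lists 12 cases had 2 summits at a gene, and in 8 of them the summits were 200 to 211 bp apart, close to the smallest spacing that the lists hold.

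The SRP RNA genes could be told apart only in part. Of the 36-base words lying wholly within the gene, 14.8% occur once in the genome for srpr-1.1 and 28.8% for srpr-1.2. The share was 31.4% for srpr-2.1 and 33.0% for srpr-2.2, against 100% for rpr-1 and mrpr-1. No word in these genes had more than 4 copies. By the position of their centre, repeated words were found from -176 at srpr-1.1 and from -66 at srpr-1.2, both before the gene. The position -176 lies in the TATATA stretch of srpr-1.1, from -189 to -158. At srpr-2.1 and srpr-2.2 the outermost repeated words were centred 6 bp and 5 bp inside the gene. The last repeated word was centred 21 bp short of the 3′ end in both srpr-1 genes. In the 200 bp after the gene every word was unique for all 4.

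The peaks held more unique sequence than the genes. At srpr-1.1, whose summit lay in pals-26, 96.8% of the words in the peak were unique. At srpr-2.1 the share was 62.5%, and at srpr-2.2 it was 62.5% and 60.4%. At srpr-1.2 it was 39.6%. Across the IDR list the median was 100% and 22 of 634 peaks (3.47%) were below 50%. The word at the srpr-1.2 summit had 2 copies in the IDR list and in both replicates, as did that at the srpr-2.2 summit near the 5′ end in the IDR list, whereas in replicate 2 the words at the strongest summits of the other SRP RNA genes had 1. In replicate 1 the words at the srpr-2.1 and srpr-2.2 summits had 2. The sources used here do not give the read length or how the authors placed reads that match several sites, and the part of this in the place or height of the SRP RNA gene peaks was not tested. Reads that lie wholly in a shared stretch cannot be told apart. Such stretches were shared within each pair, and 1 of 48 bp inside the gene was the same in all 4 genes. A peak inside one of these genes is therefore uncertain as to copy, also between the pairs.

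**Figure D4:**
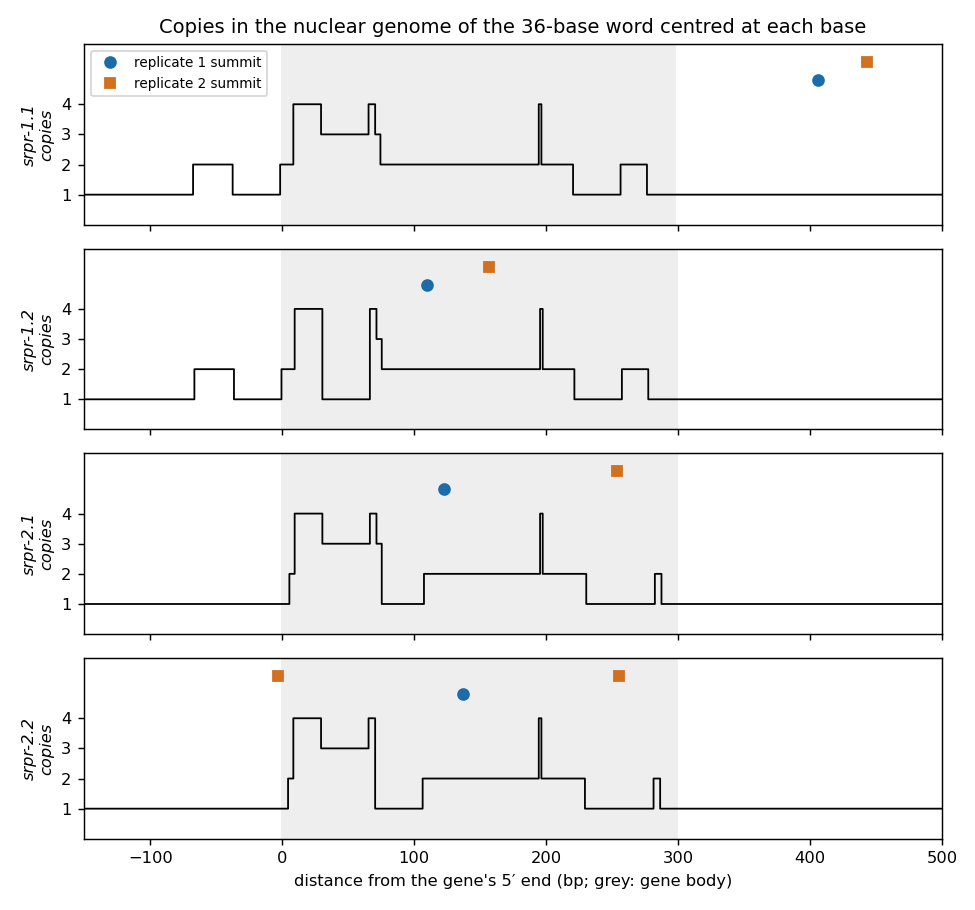
Number of genome copies of the 36-base word centred at each distance from the 5′ end of the 4 SRP RNA genes, with summits marked. Copies reach 4 inside the genes, return to 1 short of the 3′ end and stay at 1 past it, where the srpr-1.1 summit lies.

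A further annotated SRP RNA gene, srpr-3 on chromosome V, is not among the 6 and is 82.2% to 84.3% identical to the 4 when aligned. All its 36-base words are unique. It had no IDR summit, and its joint summit at -8 bp had signal 53.5 and rank 3842. Its strongest summit ranked 4903 in replicate 1 and 5440 in replicate 2. It lacked the word GAAAAACC in the window searched.

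The place of the summits also set the genes beside the other RNA classes. Over the strongest IDR summit of each gene, the offset had a median of 201 bp for the 6 genes, 15 bp for the 216 tRNA genes with an IDR summit, -49 bp for the 55 snoRNA genes with one and 46 bp for the 8 snRNA genes with one. The 5′ end was within 20 bp for 2 of 6 genes, for 93 of 216 tRNA genes (43.1%), for 7 of 55 snoRNA genes (12.7%) and for 1 of 8 snRNA genes (12.5%). The summit was 100 bp or more downstream at 4 of 6 genes, at 24 tRNA genes (11.1%), at 2 snoRNA genes (3.64%) and at 3 of 8 snRNA genes (37.5%). Genes of these classes differ in length, with a median of 298.5 bp for the 6 genes, 72 bp for tRNA genes, 76 bp for snoRNA genes and 110 bp for snRNA genes. The median signal was 165 for the 6 genes, 163 for the tRNA genes, 294 for the snoRNA genes and 146 for the snRNA genes. Neighbouring tRNA genes can share a peak, and these differences were not tested.

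**Figure D5:**
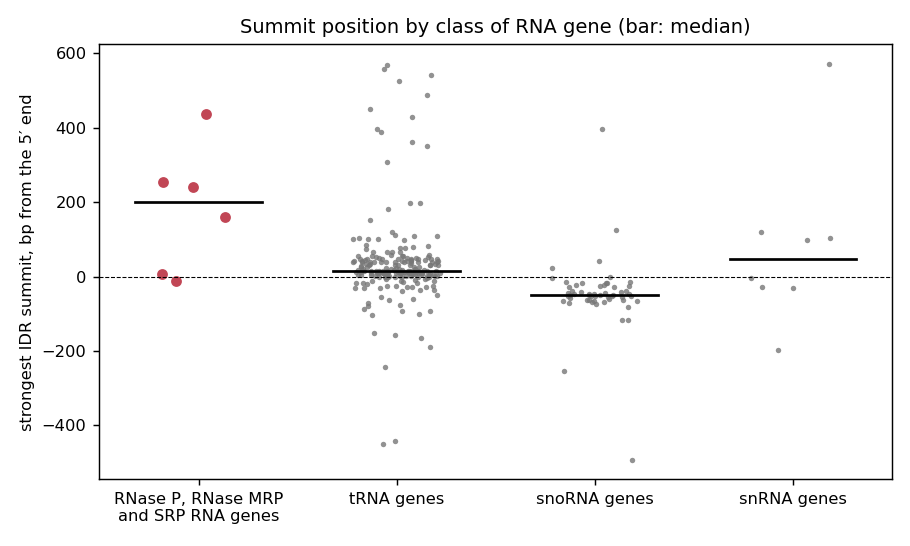
Distance of the strongest IDR summit from the 5′ end, in bp, for the 6 RNA genes, tRNA genes, snoRNA genes and snRNA genes, with the median of each class as a bar. The rpr-1 and mrpr-1 points lie beside the 5′ end at -11 and 6 bp, the 4 SRP RNA genes between 160 and 436 bp, and the snoRNA genes mostly upstream (median -49 bp).

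None of the 6 genes held the B box word GTTCNANNC, either in the promoter window or within the gene. The word was present in 588 of 612 tRNA genes (96.1%), in 10.0% of all promoters, and in 8.39% of the 3111 genes of 150 to 350 bases. Among windows of 100 bp to either side of an IDR summit, it was in 0 of 7 at these genes and in 35.8% of all 634. The word TACGTA, which holds the letters ACGT known from sites of the vertebrate GMEB proteins, was in 0 of 6 promoters and in 2.72% of all. The GC-rich word GCGCAC was in 0 of 6 promoters, against 4.38% of all promoters. In the windows at IDR summits it was in 0 of 7 at these genes and in 18.8% of all 634. The word ACGCGC was in 3 of 6 promoters, namely rpr-1, srpr-1.2 and srpr-2.2, against 4.30% of all. At srpr-1.2 and srpr-2.2 it lay from -206 to -201 and from -132 to -127, outside the windows at their IDR summits. Of those windows, 2 of 7 at these genes and 18.0% of all 634 held the word. All words were searched on both strands. A match shows only that the letters are present.

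Most other genes with the word shared by rpr-1 and mrpr-1 had no peak. Of the 40 genes that hold it, 5 (12.5%) had an IDR summit within 500 bp, the 2 genes included, against 2.69% of all nuclear genes. Without rpr-1 and mrpr-1 this was 3 of 38. In 14 genes it began 80 to 40 bases upstream, and of the 12 other than rpr-1 and mrpr-1, 2 had an IDR summit: lfor-1 and the snoRNA gene F59C6.15, which were chosen for naming after their values were seen. Of the 1376 genes with GAAAAACC in the window, 49 (3.56%) had an IDR summit, against 2.69% of all nuclear genes. Both counts include the 4 SRP RNA genes from which the word was read.

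The end of the 6 genes was marked by a run of T, the signal at which RNA polymerase III stops. TTTT began within the last 4 bases of 6 of 6 genes, against 1 of 612 tRNA genes, 72 of 346 snoRNA genes (20.8%) and 9.55% of all nuclear genes. The annotated end of a tRNA gene is that of the mature RNA, so the tRNA count does not speak of their T runs.

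Genes for the proteins of RNase P and RNase MRP, and for RNA polymerase III, were examined beside the RNA genes. A protein gene was counted when its 5′ end had a summit at most 1000 bp before it or 500 bp after it, which held for 2.22% of all protein-coding genes. Of the 6 genes for proteins of RNase P and RNase MRP, 0 were counted. The best placed, named after its values were seen, was H35B03.2, annotated as subunit p30, with rank 937 in the joint list, 629 in replicate 1 and 4580 in replicate 2. Of 19 genes for RNA polymerase III and its factors 0 were counted, and the best joint rank among them was 1882. The lists were chosen with earlier results of these data known, and with so few genes their counts are a description.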

How the data were processed

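ChIP-seq peaks from 2 biological replicates of 1 group were read on ce11 from 4 lists deposited by the authors: relaxed peaks for each replicate, relaxed peaks for both together, and the list thresholded by IDR. Per the labels, chromatin was sonicated. The signal of each peak is the authors' deposited value, made against a control. The sources used here do not give the peak caller, aligner, IDR threshold or handling of repeated matches. No read counts were used, so the depth is unknown and no interval was computed. The -log10 q value deposited by the authors for each peak, and their ce10 lists, were not used.

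Summits within 500 bp of a gene body were taken with signal, rank and offset from the 5′ end (Ensembl 115). Replicate peaks matched a peak when their strongest summit lay within 200 bp. Words were searched as exact letters on both strands. Counts were made with python 3.11.15, pandas 2.3.3 and numpy 2.4.6, checked on simulated data. The rule for named genes took the 6 listed and genes next to or overlapping them. The further SRP RNA gene srpr-3 and the genes H35B03.2, lfor-1 and F59C6.15 are named outside it, after their values were seen. Genes for SRP proteins are not reported here. Members and lists were chosen with earlier results of these data known. Since 1 group was measured, no test was made. Alternatives covered the distance, the peak set, each replicate alone, the annotation, the word and its window.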

Additional observations from a re-analysis of the deposited data

How the results depend on the processing

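The count of 6 of 6 genes with a summit held with a distance of 200 bp or 1000 bp, with interval overlap and with each replicate alone, and was 5 among the 317 strongest IDR peaks, where srpr-2.1 had none. The percent of all nuclear genes with a summit was 1.54 in that stronger part of the list and from 2.03 to 3.30 in the other settings. Over the replicates taken alone, the offset of the strongest summit ran from -12 to 5 bp at rpr-1, -1 to 83 bp at mrpr-1, 406 to 443 bp at srpr-1.1, 110 to 157 bp at srpr-1.2, 123 to 254 bp at srpr-2.1 and 137 to 255 bp at srpr-2.2. The rank ran from 42 to 49, 118 to 138, 185 to 293, 281 to 484, 330 to 380 and 185 to 245 for the same genes in that order. The RNase P and RNase MRP proteins had 0 to 1 genes with a summit, the 1 being H35B03.2 in replicate 1. The cause of these shifts was not tested. With words of 50 bases, which are longer and so more often unique, the unique share was 23.3% in srpr-1.1, 41.2% in srpr-1.2, 38.8% in srpr-2.1 and 40.4% in srpr-2.2. The RefSeq positions and the looser B box word GNTCNANNC changed no value at the 6 genes. The 50-base words, the B box search inside the gene and the partner genes per replicate were chosen after seeing the data. No paired analysis was possible because there is 1 group. Depth is unknown, and with 2 replicates and scales that differ between lists no standard deviation of signal was given.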
